A study of Mus musculus with 8 samples.

Results

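Ventricles labelled KO (2 libraries, numbered 1 and 3) were set against ventricles labelled C (3 libraries) for every gene with a deposited value of at least 1 in at least 2 of the series' 8 libraries. This rule took 13544 of the 13677 genes in the table. It used levels and no group labels. Loxl4 and 4933404O12Rik lay just inside it, with a second-highest value of 1.004, and Neil2 and Gm44769 just outside, at 0.994. The minimum of 2 libraries equals the KO group, so a gene under 1 in every C library could pass through KO. A gene low in KO could likewise pass through C. Of the C and KO libraries, only KO reached 1 for Col12a1, Krt19, Ccn4, Cthrc1, Tubb3, Tnfrsf9 and Aire, among others given below. The series concerns mice whose Vhl gene is deleted by Cre recombinase made under Wt1, and the labels call the animals Vhl-KO and WT without spelling out C, KO or DKO. All libraries are polyA RNA of untreated mouse ventricle. The sources used here do not give the strain, the age, the exons removed or the cells in which Cre acted, nor is the change that DKO carries, whose 3 libraries served only to estimate the spread. KO sample 2 was not analysed here. The labels do not state that each library is a different animal. The p-values therefore speak only of the spread among libraries, which could be technical.

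Vhl encodes the substrate-binding subunit of a ubiquitin ligase. In cells with enough oxygen, prolyl hydroxylases mark the alpha subunits of the hypoxia-inducible factors (HIF), VHL binds the marked subunits, and the proteasome destroys them. Without VHL the subunits persist, pair with ARNT and switch on genes for glucose uptake, lactate export, vessel growth and matrix cross-linking. Wt1 is a transcription factor of the epicardium, the cell layer that covers the heart and gives rise to fibroblasts and vessel-wall cells during development.

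Vhl mRNA (Vhl, ENSMUSG00000033933, chromosome 6, 113623959 to 113631633, GRCm38) read 8.97, 7.50 and 7.26 in C and 8.33 and 8.96 in KO, in units of the deposited normalised signal, which is on the scale of CPM. The KO values lay within the range of C, with log2FC 0.12 ± 0.18 SE, limma adjusted p = 0.708 (log2FC is the log2 fold change of KO against C on log2(signal + 1), and SE its standard error). A whole-gene level does not show whether an exon is missing, so it did not check the labels, and each direction below is one between libraries labelled KO and C. The tissue label was checked against markers: the ventricular light chain gene Myl2 read 9569, 8663 and 8489 in C and 4522 and 3727 in KO (log2FC -1.12 ± 0.37 SE, limma adjusted p = 0.0643). Its atrial counterpart Myl7 read 4.50, 57.2 and 1.02 in C and 26.6 and 0.988 in KO. Myl7 was thus raised in C 2 and KO 1. Several fast skeletal fibre genes, among them Myh4, Tnnt3 and Mylpf, were read in all C libraries and were at or near 0 in KO, as described at the end. The Y-linked genes Kdm5d, Uty, Ddx3y and Eif2s3y were read in all 5 libraries and none of them was called.

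The table held 17212475 to 17648456 reads in the C libraries and 18506002 and 21202385 in the KO libraries. At these depths a count of 0 allows up to 3 reads, a signal of 0.104 to 0.185, for counting error only. The deposited scaling factors were 0.925 to 0.964 in C and 1.36 to 1.37 in KO. Transcripts of the mitochondrial genome took 25.5% ± 3.07 (SD, n = 3) of the reads in C and 16.8% ± 0.811 (SD, n = 2) in KO. Scaling to library totals alone moved the median log2 difference of all genes from 0.01 to 0.48 in favour of KO, and all changes below are relative to the deposited scaling unless said otherwise. Replicates differed by far more than counting noise (chi-square per gene 13.5 to 58.4).

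Between KO and C, 934 of 13544 genes were higher in KO (6.9%) and 949 lower (7.01%), at an adjusted p under 0.05 in limma on log2(signal + 1). The difference was at least 2-fold for 394 of the higher and 319 of the lower genes, and at least 8-fold for 8 and 12. Many of these calls were lost when 1 library was left out. A fit on fewer libraries also has less power, so a lost call does not show that 1 library carried it. The number called was 899, 1048 and 985 without C replicate 1, 2 and 3, 783 without KO replicate 1 and 449 without KO replicate 3. In each of these 5 fits as well as in the full one, 169 genes were called higher (1.25%) and 143 lower (1.06%). These are named here as held calls, and each gene list below is given with its number of them. The counts called in a list are to be set beside the 6.9% higher and 7.01% lower of all tested genes. In all 934 higher and 949 lower genes the KO and C libraries did not overlap, but the same was true of 3729 (27.5%) and 3621 (26.7%) of all tested genes. A lack of overlap stated for a called gene below therefore adds nothing to its call. The median annotated transcript was 3834.5 bases long for higher genes, 1769 for lower genes and 3449.5 for genes not called. No source used here states the strand setting of the counting, so reads of a gene and of one it overlaps cannot be told apart. Among genes given with values below, this touches at least Ace, Arntl, Bhlhe40, Bhlhe41, Casq1, Ccn2, Ccnd2, Cdkn1c, Ckm, Col3a1, Col6a6, Dbp, Egln2, Elob, Fstl3, Hif1a, Kcnj3, Lipe, Lox, Loxl2, Ltbp2, Mrpl14, Myh7, Ndufa4l2, Ndufb2, Nppa, Pfkp, Phkg1, Plod2, Rad9b, Slc2a1, Stc1, Tgfb2, Timp4, Tnni3, Top2a and Uchl1.

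**Figure D1:**
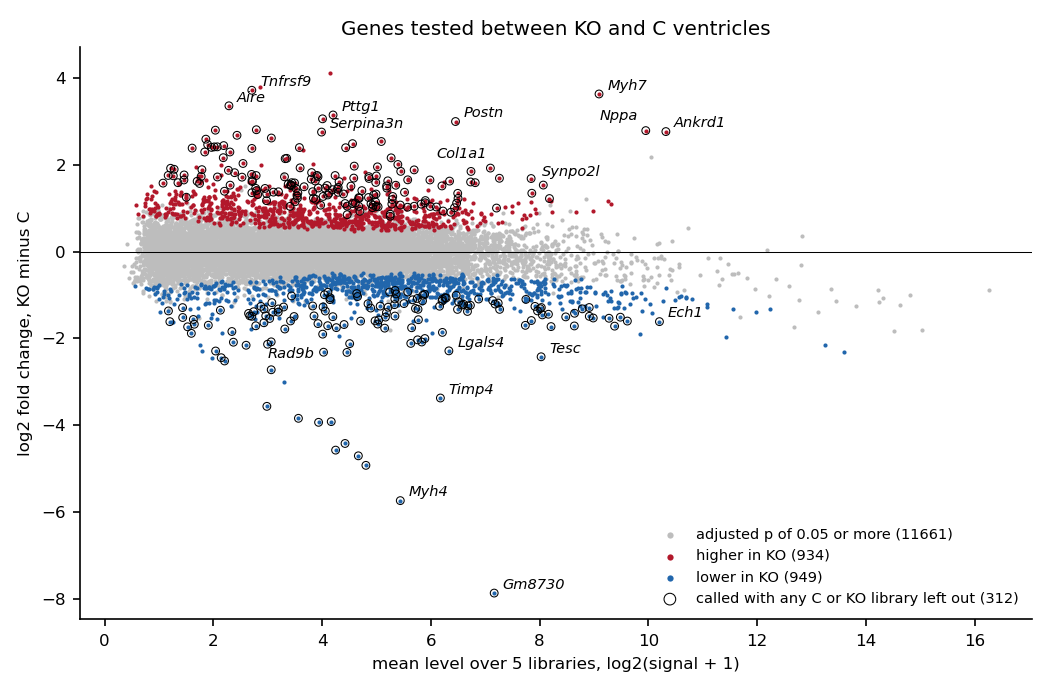
Log2 fold change between KO and C (vertical axis) against the mean level over the 5 libraries (horizontal axis, log2(signal + 1)); each point is one of 13544 genes. Red points (934) were higher and blue points (949) lower in KO at an adjusted p under 0.05, and black circles mark the 312 held calls, which include Myh7 at the upper right and the skeletal fibre gene Myh4 at the lower centre.

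Genes were picked here by their mean over the C and KO libraries together, with 13.05, the tested median, as the lowest mean allowed. High KO values add to that mean, so Pttg1, Ltbp2 and Serpina3n passed with C means of 3.46, 3.04 and 3.78. The largest held rises in this set joined genes of the stressed heart muscle with genes of the matrix. Besides Myh7, Postn, Nppa and Ankrd1, they included Pttg1 (chromosome 11, 43420250 to 43426251), which encodes securin, the inhibitor of sister chromatid separation. Pttg1 read 3.34, 4.43 and 2.63 in C and 41.6 and 34.9 in KO, a 8.89-fold difference on the log2(signal + 1) scale log2FC 3.15 ± 0.21 SE, limma adjusted p = 8.57e-06. Every KO value was several times the highest C value. Serpina3n, a secreted inhibitor of serine proteases, read 4.07, 2.98 and 4.29 in C and 36.7 and 26.3 in KO, log2FC 2.76 ± 0.34 SE, limma adjusted p = 0.000818. It belongs to a family of close copies, between which reads can be split uncertainly. Fgl2, encoding a fibrinogen-like protein of vessel and immune cells, read 17.2, 22.3 and 14.5 in C and 88.6 and 62.5 in KO (log2FC 2.01 ± 0.26 SE, limma adjusted p = 0.00101). Kcne1, the accessory subunit of the slow delayed rectifier potassium channel, read 7.44, 10.2 and 4.17 in C and 38.4 and 42.8 in KO (log2FC 2.40 ± 0.26 SE, limma adjusted p = 0.000358). The C libraries of Kcne1 spread more than those of Serpina3n.

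**Figure D2:**
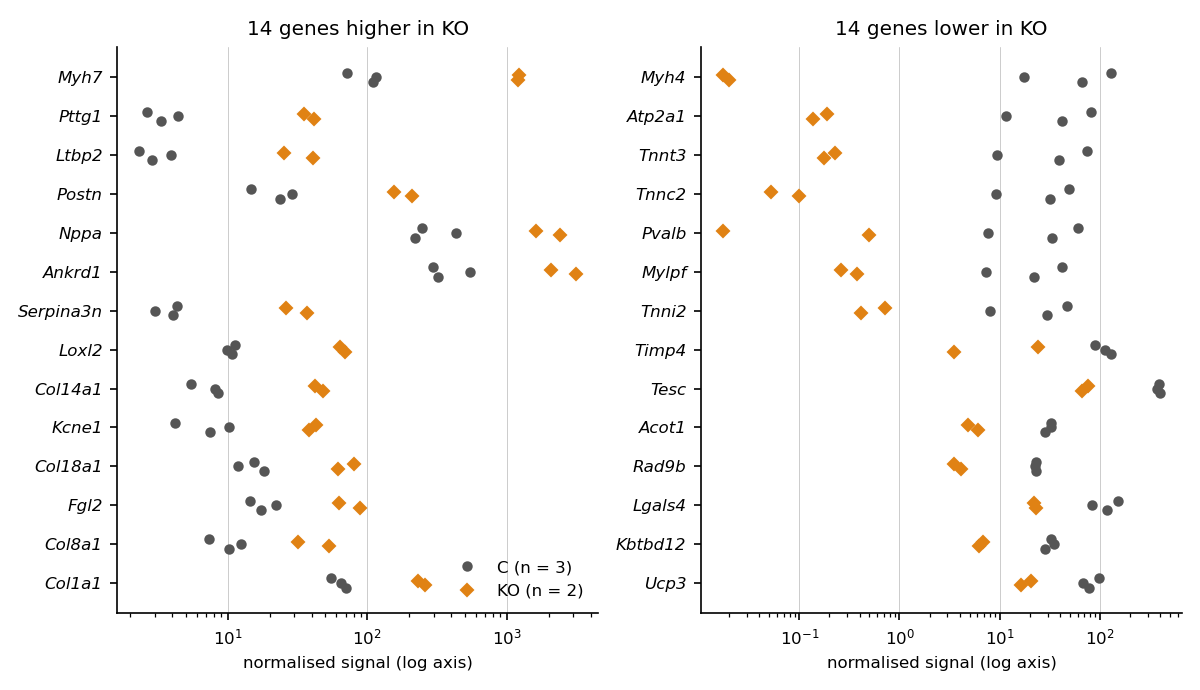
Deposited signal (log axis) of genes among the 15 with the largest held change in each direction (14 higher and 14 lower in KO are shown), with 3 C libraries as grey circles and 2 KO libraries as orange diamonds. The groups do not overlap for any of the 28 genes, which was a condition of their choice. Myh4 has 0 reads in both KO libraries, and its points there show the 0.5 reads that the authors' scale adds.

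Within the VHL and HIF pathway itself 2 of 13 tested members rose and 3 fell, none of them a held call. Hif1a, the alpha subunit of HIF-1, read 31.7, 27.2 and 30.5 in C and 69.7 and 50.3 in KO, log2FC 0.97 ± 0.19 SE, limma adjusted p = 0.00695. Its call ended in one fit (lost without KO replicate 1 at adjusted p = 0.0856). Epas1, the alpha subunit of HIF-2, read 347, 299.9 and 308 in C and 262 and 305 in KO and did not differ beyond the spread (log2FC -0.17 ± 0.19 SE, limma adjusted p = 0.606), and the partner subunit gene Arnt gave log2FC 0.27 ± 0.16 SE, limma adjusted p = 0.279. Of the prolyl hydroxylase genes, Egln3, itself a known HIF target, read 35.3, 41.5 and 44.1 in C and 74.3 and 89.3 in KO (log2FC 1.003 ± 0.19 SE, limma adjusted p = 0.00571, lost without KO replicate 3 at adjusted p = 0.0822). Egln2 went the other way, at 76.8, 75.6 and 77.1 in C and 45.01 and 54.3 in KO (log2FC -0.62 ± 0.15 SE, limma adjusted p = 0.0201), a call that ended in every fit without 1 library (lost without C replicate 1, C replicate 2, C replicate 3, KO replicate 1 and KO replicate 3 at adjusted p = 0.0763, 0.0698, 0.0719, 0.172 and 0.0648). Egln1 (log2FC 0.13 ± 0.21 SE, limma adjusted p = 0.735) and Hif1an, the asparaginyl hydroxylase gene (log2FC 0.20 ± 0.22 SE, limma adjusted p = 0.583), were not called. Among the partners of VHL in the ligase, the elongin B gene Elob fell (214 ± 15.002 in C and 109.8 ± 9.20 in KO, log2FC -0.96 ± 0.17 SE, limma adjusted p = 0.00413, lost without KO replicate 3 at adjusted p = 0.0618), as did Rbx1 (75.4 ± 7.15 in C and 49.99 ± 11.9 in KO, log2FC -0.60 ± 0.18 SE, limma adjusted p = 0.0406, lost without C replicate 1, C replicate 2, C replicate 3 and KO replicate 3 at adjusted p = 0.145, 0.119, 0.0704 and 0.371). Eloc (log2FC -0.42 ± 0.18 SE, limma adjusted p = 0.147), Cul2 (log2FC 0.05 ± 0.17 SE, limma adjusted p = 0.864) and Hif3a (log2FC 0.65 ± 0.37 SE, limma adjusted p = 0.262) were not called.

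Among genes that HIF is known to induce, some rose, most did not pass the test and Angptl4 fell. In the list of glucose and lactate transport and glycolysis 6 of 23 tested members rose and 0 fell, with 2 held calls and a median log2 fold change of 0.41, beside 0.01 over all genes. The summed level of the list went the other way, at 9310, 10126.5 and 10036 in C and 7469 and 8686 in KO. Both held calls were transporters. Slc16a3, the lactate exporter MCT4, read 2.85, 2.62 and 4.54 in C and 16.7 and 19.2 in KO (log2FC 2.15 ± 0.23 SE, limma adjusted p = 0.000349). Slc2a1, the glucose transporter GLUT1, read 8.11, 7.08 and 5.84 in C and 23.7 and 23.6 in KO (log2FC 1.63 ± 0.18 SE, limma adjusted p = 0.000426). KO lay above C for both, and the KO libraries of Slc2a1 were nearly equal. The enzymes of the pathway moved less. Pfkp, a phosphofructokinase gene, gave log2FC 0.87 ± 0.15 SE, limma adjusted p = 0.00364 (lost without KO replicate 3 at adjusted p = 0.0556), and Hk2, a hexokinase gene, log2FC 0.89 ± 0.24 SE, limma adjusted p = 0.0277 (lost without C replicate 1, C replicate 2, C replicate 3, KO replicate 1 and KO replicate 3 at adjusted p = 0.0975, 0.0629, 0.0751, 0.0658 and 0.235). The monocarboxylate transporter gene Slc16a1 gave log2FC 1.11 ± 0.30 SE, limma adjusted p = 0.0300 (lost without C replicate 1, C replicate 2, C replicate 3, KO replicate 1 and KO replicate 3 at adjusted p = 0.0932, 0.0507, 0.0942, 0.126 and 0.174). Ldha, the lactate dehydrogenase chain that hypoxia induces in many cells, read 696, 687 and 683 in C and 703 and 683 in KO (log2FC 0.01 ± 0.23 SE, limma adjusted p = 0.983), and Pgk1 gave log2FC 0.03 ± 0.27 SE, limma adjusted p = 0.949. Pdk1, the kinase that shuts pyruvate out of the mitochondrion, gave log2FC 0.37 ± 0.27 SE, limma adjusted p = 0.401.

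In the list of oxygen supply and vessel signals 7 of 19 tested members rose and 1 fell, 5 of the rises being held calls. Several of these encode secreted signals. Esm1, a marker of sprouting endothelial tips, read 0.949, 0.934 and 2.01 in C and 10.4 and 4.97 in KO (log2FC 1.88 ± 0.31 SE, limma adjusted p = 0.00282). The vasodilator peptide gene Adm read 3.95, 4.55 and 4.23 in C and 11.3 and 13.95 in KO (log2FC 1.37 ± 0.22 SE, limma adjusted p = 0.00258). The apelin gene Apln read 10.3, 8.89 and 10.2 in C and 28.05 and 24.9 in KO (log2FC 1.35 ± 0.17 SE, limma adjusted p = 0.000824). Angptl2 read 36.2, 41.5 and 37.97 in C and 96.3 and 81.1 in KO (log2FC 1.18 ± 0.15 SE, limma adjusted p = 0.00101). In all of these genes both KO libraries lay above all C libraries, though Esm1 was higher in KO 1 than in KO 3. Vegfa, the main HIF-induced vessel growth factor, read 227, 220.3 and 291 in C and 276 and 288 in KO, with overlapping libraries (log2FC 0.21 ± 0.27 SE, limma adjusted p = 0.660). Its relative Pgf, the placental growth factor gene listed with the feedback genes, read 6.40, 5.03 and 6.39 in C and 25.8 and 21.3 in KO (log2FC 1.82 ± 0.31 SE, limma adjusted p = 0.00362). The receptor genes Flt1 (log2FC -0.09 ± 0.23 SE, limma adjusted p = 0.830) and Kdr (log2FC -0.55 ± 0.26 SE, limma adjusted p = 0.177) were not called. Angptl4, an inhibitor of lipoprotein lipase and a known target of both HIF and the PPAR receptors, fell, with 90.9 ± 18.7 in C and 23.9 ± 2.46 in KO (log2FC -1.87 ± 0.36 SE, limma adjusted p = 0.00629, lost without KO replicate 3 at adjusted p = 0.0752).

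In the list of pH regulation, mitophagy and feedback 7 of 22 tested members rose and 0 fell, with 4 held calls. Ndufa4l2, encoding a mitochondrial protein that HIF-1 is known to induce and that is also used as a pericyte marker, read 25.7, 22.2 and 19.1 in C and 70.8 and 61.6 in KO (log2FC 1.53 ± 0.20 SE, limma adjusted p = 0.00101). The paired transcriptional repressor genes Bhlhe40 and Bhlhe41 both rose. Bhlhe40 read 17.7, 23.8 and 19.4 in C and 86.2 and 65.8 in KO (log2FC 1.85 ± 0.19 SE, limma adjusted p = 0.000276). Bhlhe41 read 9.28, 11.5 and 10.5 in C and 32.5 and 29.4 in KO (log2FC 1.48 ± 0.18 SE, limma adjusted p = 0.000774). Stc1, a secreted glycoprotein gene, gave log2FC 1.57 ± 0.32 SE, limma adjusted p = 0.00884 (lost without KO replicate 1 and KO replicate 3 at adjusted p = 0.0648 and 0.0823). The mitophagy receptor gene Bnip3 read 106, 117 and 94.7 in C and 108 and 105 in KO (log2FC 0.01 ± 0.21 SE, limma adjusted p = 0.973), and Ankrd37 gave log2FC 0.06 ± 0.27 SE, limma adjusted p = 0.907. The medians of the 3 target lists, 0.41, 0.34 and 0.34, were positive with every scaling. They lay between 0.29, with median centring, and 0.86, with library totals, where the median of all genes was 0.48.

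**Figure D3:**
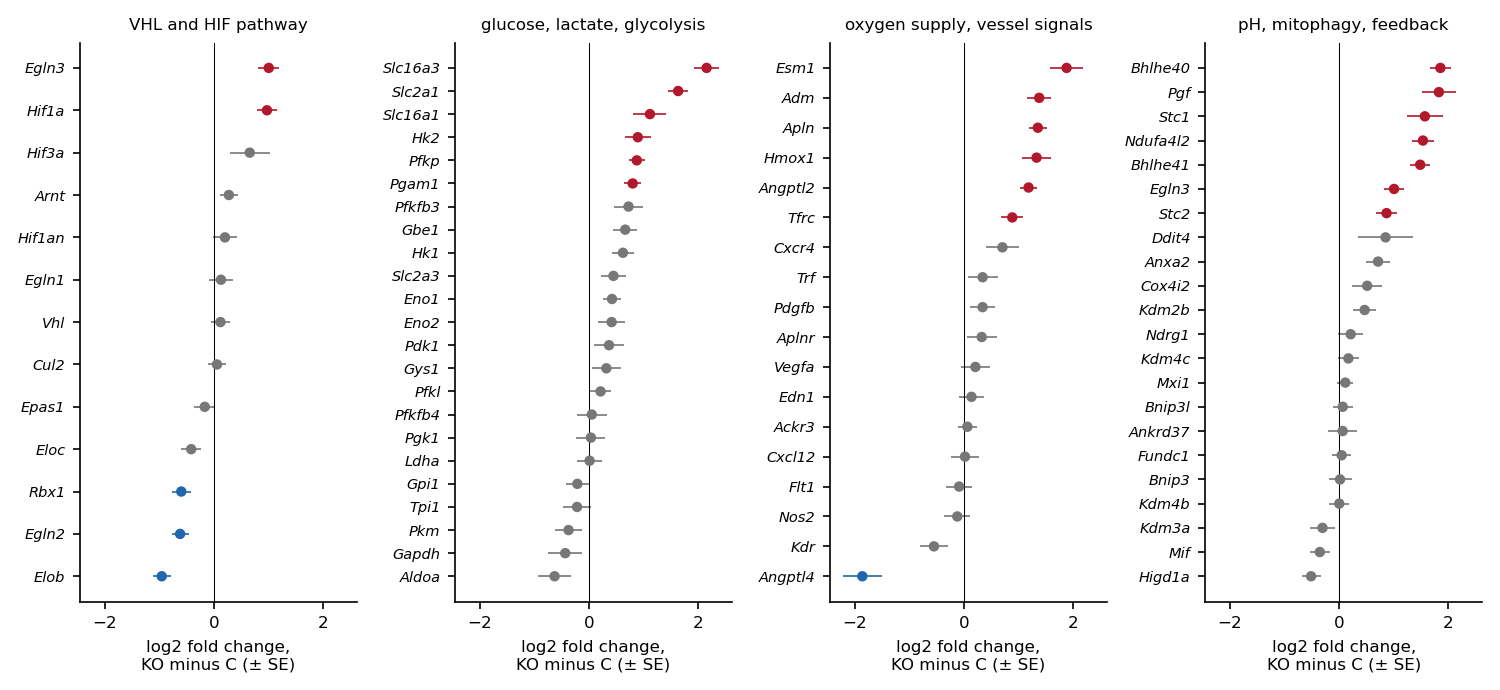
Log2 fold change (KO minus C, with its SE from limma) of the reported genes of the VHL and HIF pathway list and of the 3 lists of HIF targets. Red marks genes called higher, blue genes called lower and grey genes not called; Slc16a3 and Bhlhe40 head their lists, while Ldha, Vegfa and Bnip3 lie near 0.

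Promoter sequences of 4 HIF targets with held rises are shown because HIF binds the short element ACGTG, read as CACGT on the other strand. Each is the 250 bases before the start site, from RefSeq on GRCm38.p6, 5′ to 3′ on the gene's strand, with matches in capitals. Slc16a3 (chr11:120948817-120949066, plus strand) holds 2 matches, Slc2a1 (chr4:119108495-119108744, plus strand) 1, Bhlhe41 (chr6:145865421-145865670, minus strand) 2 that overlap as the palindrome CACGTG, and Adm (chr7:110627407-110627656, plus strand) none in this window. Of the 8 held HIF targets with a promoter in the table, 3 held a match (Slc16a3, Slc2a1 and Bhlhe41), while Adm, Esm1, Apln, Angptl2 and Pgf held none in this window. Only the first listed start site of each gene was searched, and only for ACGTG and CACGT.
Slc16a3: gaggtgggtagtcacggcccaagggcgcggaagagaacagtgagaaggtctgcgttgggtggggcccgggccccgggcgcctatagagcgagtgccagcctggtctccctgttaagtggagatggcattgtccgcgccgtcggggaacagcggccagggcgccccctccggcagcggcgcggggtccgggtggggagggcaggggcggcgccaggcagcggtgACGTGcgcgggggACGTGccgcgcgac
Slc2a1: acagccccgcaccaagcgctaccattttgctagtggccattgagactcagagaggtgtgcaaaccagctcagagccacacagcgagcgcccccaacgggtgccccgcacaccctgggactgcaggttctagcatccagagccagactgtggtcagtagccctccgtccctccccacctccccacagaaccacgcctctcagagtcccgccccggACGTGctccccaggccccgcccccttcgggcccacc
Bhlhe41: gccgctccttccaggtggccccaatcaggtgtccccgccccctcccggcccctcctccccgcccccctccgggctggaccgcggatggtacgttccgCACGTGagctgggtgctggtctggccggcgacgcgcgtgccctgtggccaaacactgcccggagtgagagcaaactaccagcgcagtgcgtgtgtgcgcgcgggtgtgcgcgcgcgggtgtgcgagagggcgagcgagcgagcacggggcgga
Adm: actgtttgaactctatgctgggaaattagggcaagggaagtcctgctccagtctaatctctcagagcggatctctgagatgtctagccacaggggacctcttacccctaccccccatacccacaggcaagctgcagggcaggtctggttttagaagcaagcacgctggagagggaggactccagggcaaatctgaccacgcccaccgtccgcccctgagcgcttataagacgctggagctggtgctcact
The match occurred in 16.6% of 27025 promoters in the reference, 21.7% of 10334 promoters of tested genes, 24.4% of 693 promoters of genes higher in KO and 19.8% of 713 of genes lower in KO. Of the 64 tested genes in the HIF target lists 49 had a promoter there, and 14 of these (28.6%) held a match, as did 7 of the 15 (46.7%) that were higher. These are descriptions of letters in a window, not of bound sites.

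Most genes of cardiac stress and the fetal programme rose: 19 of 25 tested members rose and 0 fell, 12 of the rises being held calls, with a median log2 fold change of 1.71. Its members Postn, Ccn1, Ccn2, Tnc, Cilp, Thbs4, Comp and Ltbp2 are also in the matricellular list below and count in both. Myh7, the slow beta myosin heavy chain of fetal ventricle, read 109, 115 and 71.9 in C and 1207 and 1219 in KO (ENSMUSG00000053093, chromosome 14, 54970684 to 54994626, log2FC 3.64 ± 0.27 SE, limma adjusted p = 2.81e-05). Its partner of the adult mouse ventricle, Myh6, read 21609.5, 24532 and 23724 in C and 11073 and 14230.2 in KO and was not called (log2FC -0.89 ± 0.50 SE, limma adjusted p = 0.263). Per base of transcript, Myh7 made up 0.416% ± 0.105 (SD, n = 3) of the summed Myh6 and Myh7 signal in C and 8.71% ± 1.35 (SD, n = 2) in KO. The myosin of the KO libraries thus remained mostly Myh6, and reads of these near-identical genes can be split uncertainly. Nppa, the gene of atrial natriuretic peptide, read 220.3, 429.9 and 246 in C and 2423 and 1624 in KO (log2FC 2.79 ± 0.35 SE, limma adjusted p = 0.000895). It is an atrial as well as a stress gene. The atrial markers Myl7 and Myl4 were highest in C 2 and next in KO 1 (Myl4 9.40, 60.9 and 3.18 in C and 33.6 and 2.48 in KO), and their part in the Nppa difference was not tested. KO 3 read 0.988 for Myl7 and 1624 for Nppa. Of 17 atrium markers 2 rose and 2 fell, and their summed level, Nppa included, was 527 to 945 in C and 2189.9 to 3009 in KO. Ankrd1, a titin-bound stretch sensor gene, read 324, 545 and 296 in C and 3156 and 2068 in KO (log2FC 2.77 ± 0.46 SE, limma adjusted p = 0.00318).

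Further held calls in this group were Uck2, a uridine kinase gene, at 19.5, 27.5 and 24.7 in C and 102 and 79.7 in KO (log2FC 1.89 ± 0.21 SE, limma adjusted p = 0.000358), and Rcan1. Rcan1, the feedback inhibitor of calcineurin, read 74.9, 86.8 and 69.7 in C and 352 and 178 in KO (log2FC 1.69 ± 0.29 SE, limma adjusted p = 0.00380). Cilp, encoding a matrix protein of cartilage and scarred heart, read 9.77, 8.59 and 6.52 in C and 44.2 and 20.3 in KO (log2FC 1.76 ± 0.29 SE, limma adjusted p = 0.00312). Gdf15, a stress-induced cytokine gene, read 5.42, 5.64 and 4.17 in C and 19.1 and 14.4 in KO (log2FC 1.54 ± 0.26 SE, limma adjusted p = 0.00306). KO and C did not overlap in any of these genes. Other members of the list that are used as heart failure markers did not pass. Nppb, the gene of B-type natriuretic peptide, read 195, 174 and 190.02 in C and 655 and 235 in KO, so that KO 1 stood well above KO 3 (log2FC 1.07 ± 0.71 SE, limma adjusted p = 0.351). Acta1, skeletal alpha-actin, read 285, 513 and 518 in C and 2393 and 1564 in KO (log2FC 2.19 ± 0.80 SE, limma adjusted p = 0.0886).

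The thin filament and Z-disc list had 9.09% of its members higher and 9.09% lower, and the thick filament list 5.26% and 0%. Among all tested genes the shares were 6.9% and 7.01%. In the thick filament list only Myh7 among 19 genes was called, and in the thin filament and Z-disc list 3 of 33 rose and 3 fell, with 2 and 1 held calls. The median was -0.28 in the first and -0.05 in the second, and both turned positive with quantile normalisation (0.17 and 0.40) or library totals (0.26 and 0.49), so no direction is given for these lists. Synpo2l, a Z-disc protein gene, read 111, 125 and 120.1 in C and 475 and 311 in KO (log2FC 1.69 ± 0.25 SE, limma adjusted p = 0.00175). Tnnt1, the slow skeletal troponin T gene, read 23.3, 19.9 and 20.98 in C and 9.39 and 10.002 in KO (log2FC -1.06 ± 0.18 SE, limma adjusted p = 0.00391). The calls of Tnni3, the adult cardiac troponin I gene (6364 ± 383 in C and 2554 ± 7.85 in KO, log2FC -1.31 ± 0.33 SE, limma adjusted p = 0.0211), ended in every fit without 1 library (lost without C replicate 1, C replicate 2, C replicate 3, KO replicate 1 and KO replicate 3 at adjusted p = 0.0887, 0.0795, 0.0746, 0.121 and 0.141).

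Channel genes were called in both directions. In the potassium, sodium and connexin list 4 of 30 tested members rose (13.3%) and 3 fell (10%), beside 6.9% and 7.01% of all tested genes. The held calls were Kcne1 upward and Kcnv2 and Kcnj3 downward. Kcnv2, a silent potassium channel subunit gene, read 9.03, 10.8 and 13.1 in C and 1.08 and 2.79 in KO (log2FC -2.08 ± 0.26 SE, limma adjusted p = 0.000890). Kcnj3, a subunit of the acetylcholine-gated channel that is stronger in atrium, read 25.8, 32.7 and 25.98 in C and 6.83 and 9.48 in KO (log2FC -1.68 ± 0.22 SE, limma adjusted p = 0.00106). In the calcium list 3 of 29 tested members rose (10.3%) and 2 fell (6.9%), beside the same shares of all tested genes. The held call there was Cacna1g, a T-type calcium channel gene, at 19.1, 20.5 and 21.96 in C and 38.2 and 47.2 in KO (log2FC 1.02 ± 0.16 SE, limma adjusted p = 0.00265). The calcium pump gene Atp2a2 (log2FC 0.05 ± 0.35 SE, limma adjusted p = 0.944), its inhibitor Pln (log2FC -0.14 ± 0.30 SE, limma adjusted p = 0.794) and the release channel gene Ryr2 (log2FC -0.27 ± 0.24 SE, limma adjusted p = 0.502) were not called. Hrc, encoding a calcium-binding protein of the sarcoplasmic reticulum, fell (683 ± 26.2 in C and 288 ± 58.1 in KO, log2FC -1.26 ± 0.24 SE, limma adjusted p = 0.00622, lost without KO replicate 1 at adjusted p = 0.0732). Of 37 cardiac transcription factor genes 6 rose and 1 fell. Tbx20, a T-box factor of developing and adult myocardium, was the held call, at 14.1, 19.4 and 16.3 in C and 53.3 and 50.3 in KO (log2FC 1.60 ± 0.18 SE, limma adjusted p = 0.000454), while Nkx2-5 (log2FC 0.07 ± 0.23 SE, limma adjusted p = 0.861) and Gata4 (log2FC 0.51 ± 0.18 SE, limma adjusted p = 0.0739) were not called.

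Extracellular matrix genes rose across several lists. Among collagen chains 17 of 30 tested members rose and 2 fell, 11 rises being held calls, with a median log2 fold change of 0.91. Col1a1, the main fibrillar collagen chain, read 70.1, 65.1 and 55.3 in C and 258 and 229 in KO (log2FC 1.93 ± 0.29 SE, limma adjusted p = 0.00199). Col3a1 read 171, 148 and 133 in C and 500.000000 and 383 in KO (log2FC 1.54 ± 0.27 SE, limma adjusted p = 0.00421). Col12a1, a collagen that coats fibrils, had under 1 unit in each C library and read 0.827, 0.573 and 0.711 in C and 10.9 and 8.996 in KO (log2FC 2.68 ± 0.26 SE, limma adjusted p = 0.000221). Col14a1, a relative of the same class, read 8.48, 8.11 and 5.47 in C and 48.5 and 42.3 in KO (log2FC 2.49 ± 0.25 SE, limma adjusted p = 0.000252). Col8a1, a short-chain collagen of vessel walls, read 10.3, 12.4 and 7.32 in C and 53.4 and 32.02 in KO (log2FC 1.97 ± 0.24 SE, limma adjusted p = 0.000695). Both KO libraries lay above all C libraries in each of these. The chains that fell were Col6a6 (4.67 ± 0.402 in C and 0.947 ± 0.254 in KO, log2FC -1.55 ± 0.29 SE, limma adjusted p = 0.00526, lost without KO replicate 1 at adjusted p = 0.0537) and Col5a3 (73.05 ± 14.02 in C and 31.3 ± 1.17 in KO, log2FC -1.18 ± 0.24 SE, limma adjusted p = 0.00861, lost without KO replicate 1 and KO replicate 3 at adjusted p = 0.0537 and 0.0854).

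Among the enzymes that process and cross-link collagen 8 of 24 tested members rose and 1 fell, with 4 held rises. Loxl2, a lysyl oxidase and a known HIF target, read 10.8, 9.85 and 11.2 in C and 69.6 and 63.6 in KO (log2FC 2.54 ± 0.16 SE, limma adjusted p = 6.84e-06). Lox, the founding member of that family, read 5.54, 4.49 and 4.66 in C and 21.8 and 12.8 in KO (log2FC 1.59 ± 0.27 SE, limma adjusted p = 0.00319). Plod2, the hydroxylase that prepares stable cross-links and is also HIF-induced, read 8.60, 9.49 and 11.7 in C and 21.7 and 21.9 in KO (log2FC 1.07 ± 0.18 SE, limma adjusted p = 0.00328). Adamts2, which trims the ends of procollagen, read 14.5, 15.7 and 13.1 in C and 48.7 and 48.4 in KO (log2FC 1.69 ± 0.22 SE, limma adjusted p = 0.000959). P3h4 fell (31.5 ± 1.19 in C and 17.8 ± 0.217 in KO, log2FC -0.79 ± 0.17 SE, limma adjusted p = 0.0106, lost without KO replicate 1 and KO replicate 3 at adjusted p = 0.0658 and 0.0922). The collagen prolyl hydroxylase genes P4ha1 (log2FC 0.43 ± 0.17 SE, limma adjusted p = 0.112) and P4ha2 (log2FC 0.51 ± 0.17 SE, limma adjusted p = 0.0689), also HIF targets in other cells, were not called.

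Among matricellular and elastic fibre genes 26 of 48 tested members rose and 1 fell, with 11 held rises and a median of 0.86. Postn, encoding periostin of activated fibroblasts, read 23.8, 29.1 and 14.7 in C and 209.9 and 155 in KO (log2FC 3.001 ± 0.28 SE, limma adjusted p = 0.000203). Ltbp2, a fibrillin-bound protein gene, read 2.85, 3.95 and 2.32 in C and 40.8 and 25.5 in KO (log2FC 3.06 ± 0.26 SE, limma adjusted p = 0.000106). The CCN family of signalling matrix proteins rose in several members. Ccn2, connective tissue growth factor, read 50.2, 67.1 and 39.02 in C and 193 and 179 in KO (log2FC 1.85 ± 0.22 SE, limma adjusted p = 0.000645). Ccn5 read 3.70, 4.91 and 5.10 in C and 26.4 and 15.3 in KO (log2FC 1.93 ± 0.25 SE, limma adjusted p = 0.00101), and Ccn4 read 0.582, 0.573 and 0.0927 in C and 3.52 and 4.004 in KO (log2FC 1.77 ± 0.25 SE, limma adjusted p = 0.00151). The single fall was Efemp1, a fibulin gene, at 3.40, 2.68 and 3.55 in C and 0.256 and 0.607 in KO (log2FC -1.56 ± 0.24 SE, limma adjusted p = 0.00233). The proteoglycan genes Dcn (log2FC 0.34 ± 0.36 SE, limma adjusted p = 0.575) and Lum (log2FC 0.63 ± 0.32 SE, limma adjusted p = 0.218), which resting fibroblasts express, were not called. The medians of the collagen and matricellular lists were positive with every scaling, from 0.81 to 1.39.

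Among matrix proteases and their inhibitors 12 of 36 tested members rose and 2 fell, with 5 and 1 held calls. The tissue inhibitors of metalloproteinases split. Timp1 read 3.03, 2.44 and 1.39 in C and 12.9 and 7.78 in KO (log2FC 1.78 ± 0.29 SE, limma adjusted p = 0.00265). Timp4, the member typical of heart, read 129, 111 and 88.4 in C and 3.48 and 23.9 in KO (log2FC -3.37 ± 0.50 SE, limma adjusted p = 0.00181). KO 1 and KO 3 differed several-fold in Timp4, yet both lay below all C libraries. Its gene overlaps Syn2 on the opposite strand and lies 1.62 Mb from Vhl. Of the 48 tested genes within 3 Mb of Vhl 3 were higher and 3 lower, beside 6.9% and 7.01% of all tested genes. Adamtsl2, which binds latent TGF-beta binding proteins, read 15.2, 14.7 and 12.3 in C and 44.6 and 53.3 in KO (log2FC 1.73 ± 0.27 SE, limma adjusted p = 0.00245). Plaur, the urokinase receptor gene, read 2.23, 1.72 and 1.45 in C and 6.48 and 6.15 in KO (log2FC 1.39 ± 0.25 SE, limma adjusted p = 0.00448).

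TGF-beta and BMP genes had 12 rises and 0 falls among 39, and the 4 held rises were the ligand genes Tgfb2 (4.07, 5.51 and 4.42 in C and 21.9 and 11.01 in KO, log2FC 1.56 ± 0.27 SE, limma adjusted p = 0.00362) and Gdf15 and the follistatin-like genes Fstl1 and Fstl3. Fstl3, a binder of activins, read 2.79, 4.07 and 2.87 in C and 18.6 and 16.6 in KO (log2FC 2.14 ± 0.19 SE, limma adjusted p = 0.000122). Fstl1, secreted by epicardium and fibroblasts, read 65.8, 60.7 and 46.2 in C and 195 and 158 in KO (log2FC 1.61 ± 0.22 SE, limma adjusted p = 0.00123). Tgfb1 (log2FC -0.04 ± 0.19 SE, limma adjusted p = 0.908) and Tgfb3 (log2FC 0.40 ± 0.17 SE, limma adjusted p = 0.138) were not called. Among growth factor genes 6 of 37 tested members rose and 1 fell. The held rises were Hbegf, an EGF receptor ligand gene, at 7.87, 6.42 and 5.16 in C and 23.2 and 22.03 in KO (log2FC 1.67 ± 0.18 SE, limma adjusted p = 0.000354), and Igfbp5. Igfbp5, a binder of insulin-like growth factors, read 42.5, 49.6 and 37.9 in C and 127 and 143 in KO (log2FC 1.63 ± 0.26 SE, limma adjusted p = 0.00255). Among adrenergic, natriuretic and renin-angiotensin genes 6 of 30 tested members rose and 2 fell. The held rises were Adrb1, the main cardiac beta-adrenergic receptor gene, at 8.11, 9.49 and 7.32 in C and 21.7 and 19.9 in KO (log2FC 1.24 ± 0.19 SE, limma adjusted p = 0.00228), and Ace. Ace, angiotensin-converting enzyme, read 39.6, 35.8 and 42.7 in C and 86.98 and 87.03 in KO (log2FC 1.13 ± 0.17 SE, limma adjusted p = 0.00208). Agt, the angiotensin precursor gene, fell (4.97 ± 0.730 in C and 1.78 ± 0.596 in KO, log2FC -1.11 ± 0.21 SE, limma adjusted p = 0.00605, lost without KO replicate 1 at adjusted p = 0.0720).

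**Figure D4:**
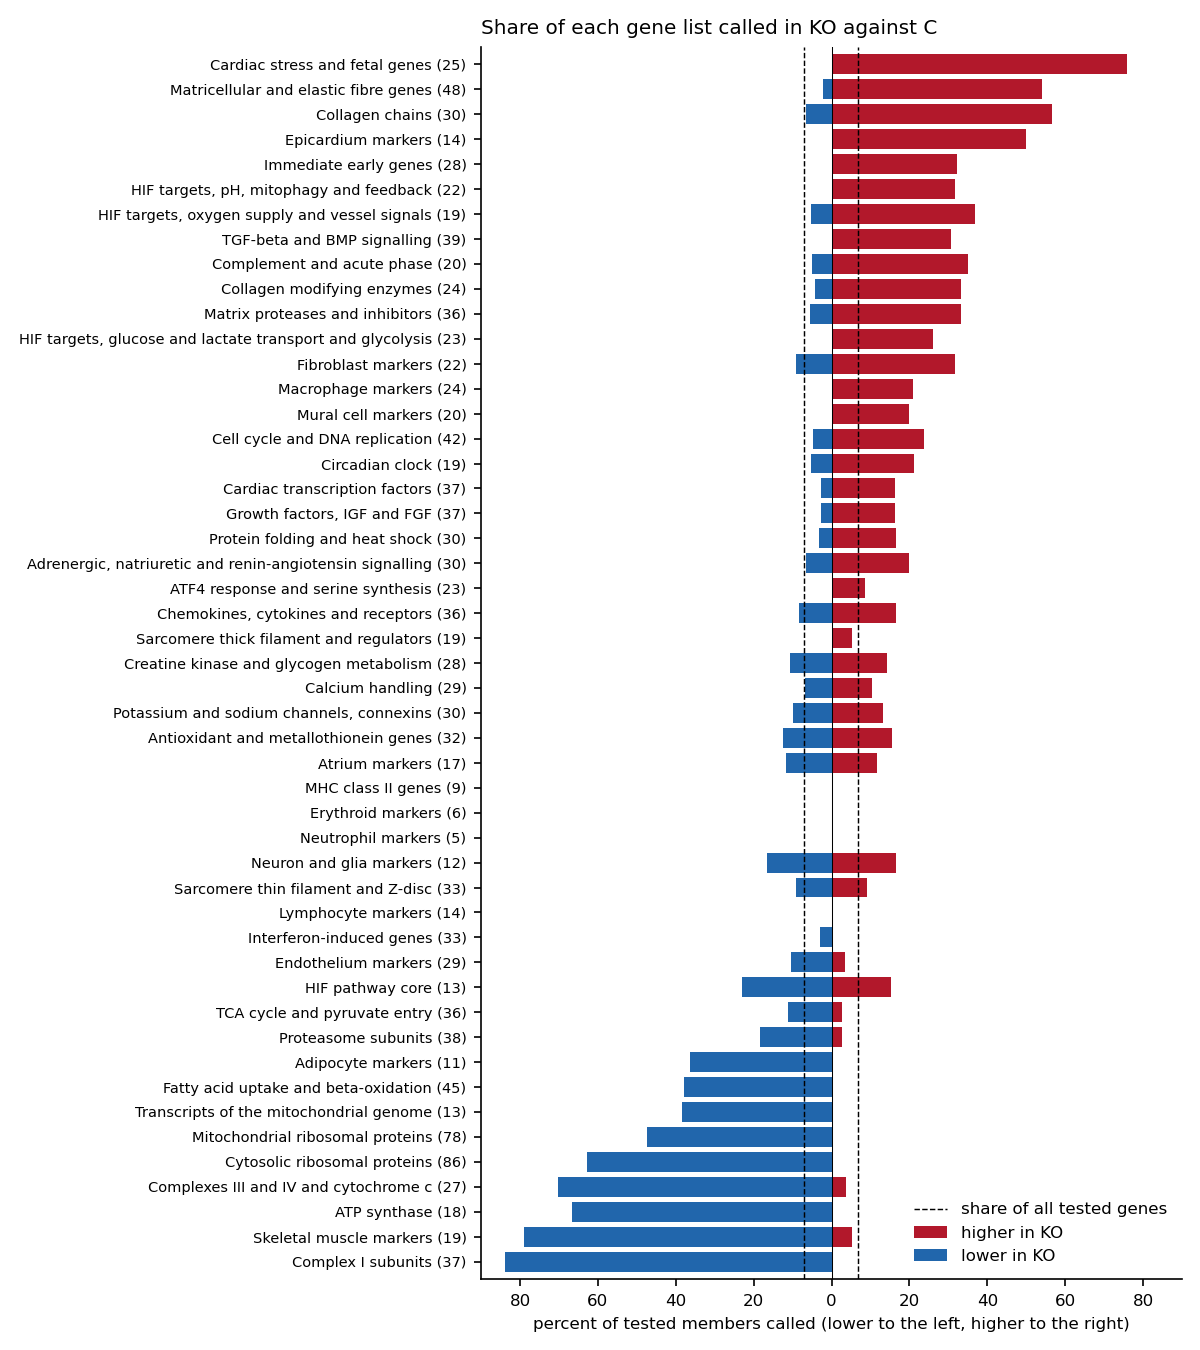
Share of the tested members of each gene list called higher (red, to the right) or lower (blue, to the left) in KO, in percent, with the number of tested members in brackets. Dashed lines mark the 6.9% and 7.01% of all tested genes called higher and lower; cardiac stress, collagen and matricellular genes reach furthest to the right, and complex I, skeletal muscle and complex III and IV genes to the left.

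Genes of fat use and of the respiratory chain were lower. In the fatty acid list 0 of 45 tested members rose and 17 fell, 9 of the falls being held calls, with a median log2 fold change of -0.59. Acot1, a cytosolic thioesterase gene with a close copy in Acot2, read 28.6, 32.7 and 32.5 in C and 6.12 and 4.84 in KO (log2FC -2.32 ± 0.24 SE, limma adjusted p = 0.000283). Ucp3, a mitochondrial carrier gene that fatty acids induce, read 77.2, 67.1 and 98.8 in C and 16.2 and 20.3 in KO (log2FC -2.08 ± 0.21 SE, limma adjusted p = 0.000256). Ech1, an auxiliary enzyme for unsaturated fatty acids, read 1627, 1576 and 1629 in C and 511 and 542 in KO (log2FC -1.61 ± 0.27 SE, limma adjusted p = 0.00294). Acaa2, the last step of the beta-oxidation cycle, read 1066, 1049.9 and 1087 in C and 328 and 377 in KO (log2FC -1.60 ± 0.26 SE, limma adjusted p = 0.00260). Both KO libraries lay below all C libraries in these genes. Pdk4, which saves glucose when fat is burnt, read 500.4, 536 and 607 in C and 129 and 214 in KO (log2FC -1.71 ± 0.28 SE, limma adjusted p = 0.00275). The core dehydrogenase gene Acadm (log2FC -0.14 ± 0.28 SE, limma adjusted p = 0.782) and the uptake gene Cd36 (log2FC -0.57 ± 0.22 SE, limma adjusted p = 0.103) were not called. Of 36 genes of the TCA cycle and pyruvate entry 4 fell and 1 rose, the held call being Pdk4, and the median of -0.14 turned to 0.03 with quantile normalisation and 0.40 with library totals.

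Among complex I subunits 0 of 37 tested members rose and 31 fell, and among complexes III and IV and cytochrome c 1 of 27 tested members rose and 19 fell. Of 18 ATP synthase genes 12 fell and 0 rose. The medians were -1.05, -1.06 and -1.06. Without KO replicate 3 the falls numbered 10, 3 and 1, and 10, 3 and 1 were held calls. Ndufb2, an accessory subunit of complex I, read 466, 369.9 and 393 in C and 133 and 113 in KO (log2FC -1.73 ± 0.19 SE, limma adjusted p = 0.000426). Uqcr11 of complex III read 911, 777 and 825 in C and 325 and 256 in KO (log2FC -1.53 ± 0.21 SE, limma adjusted p = 0.00114). Cox7a1 of complex IV read 742, 666 and 645 in C and 264 and 211 in KO (log2FC -1.53 ± 0.21 SE, limma adjusted p = 0.00118). Atp5e of ATP synthase read 1064, 831 and 860.1 in C and 338 and 227 in KO (log2FC -1.72 ± 0.23 SE, limma adjusted p = 0.00101). In each, KO 3 was the lowest library. Among the members not called were Ndufs1 (log2FC 0.07 ± 0.28 SE, limma adjusted p = 0.892), Uqcrc2 (log2FC -0.08 ± 0.29 SE, limma adjusted p = 0.883) and Atp5a1 (log2FC -0.52 ± 0.34 SE, limma adjusted p = 0.332). Ndufa4l2 was the single rise in these lists. Of the 13 transcripts of the mitochondrial genome 5 fell, none a held call. The subunit transcript mt-Co2 gave log2FC -2.31 ± 0.54 SE, limma adjusted p = 0.0163 (lost without C replicate 1, C replicate 3 and KO replicate 3 at adjusted p = 0.0559, 0.0742 and 0.202).

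Transcript length moved with these falls. Of the 2708 genes with the shortest transcripts (204 to 1933 bases) 517 were lower and 113 higher. Of the 2707 genes with the longest (5246 bases or more) 72 were lower and 240 higher. Cytosolic ribosomal protein genes, which are short, had 54 of 86 lower with a median of -0.75, but 1 held call. The falls numbered 7, 19 and 27 when C 1, C 2 or C 3 was left out, 47 when KO 1 was and 1 when KO 3 was. The held call was Rpl3l, the muscle form of a large-subunit protein, at 279, 293 and 310.1 in C and 82.7 and 97.5 in KO (log2FC -1.70 ± 0.22 SE, limma adjusted p = 0.000954). Mitochondrial ribosomal protein genes had 37 of 78 lower, 5 of them held calls, among them Mrpl14 at 95.6, 91.4 and 89.4 in C and 39.8 and 36.2 in KO (log2FC -1.26 ± 0.17 SE, limma adjusted p = 0.00101). When each library's trend over transcript length and GC share was taken out, 16 cytosolic and 22 mitochondrial ribosomal genes were lower. In the same fit 22 of complex I, 11 of complexes III and IV, 8 of ATP synthase, 0 of the mitochondrial genome and 15 of the fatty acid list were lower, beside 686 of all genes. The medians of all these lists stayed negative under each scaling tried. With library totals, where the median of all genes was 0.48, the genes lower in KO numbered 7 in complex I, 3 in complexes III and IV, 2 in ATP synthase, 7 in the fatty acid list, 1 among cytosolic and 2 among mitochondrial ribosomal genes. The genes higher in KO then numbered 0, 2, 0, 2, 1 and 3 in the same order. Of all 13544 tested genes 195 were lower and 4611 higher with that scaling. Of 38 proteasome genes 7 fell and 1 rose, none a held call, with a median of -0.34 that turned to 0.19 with library totals.

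**Figure D5:**
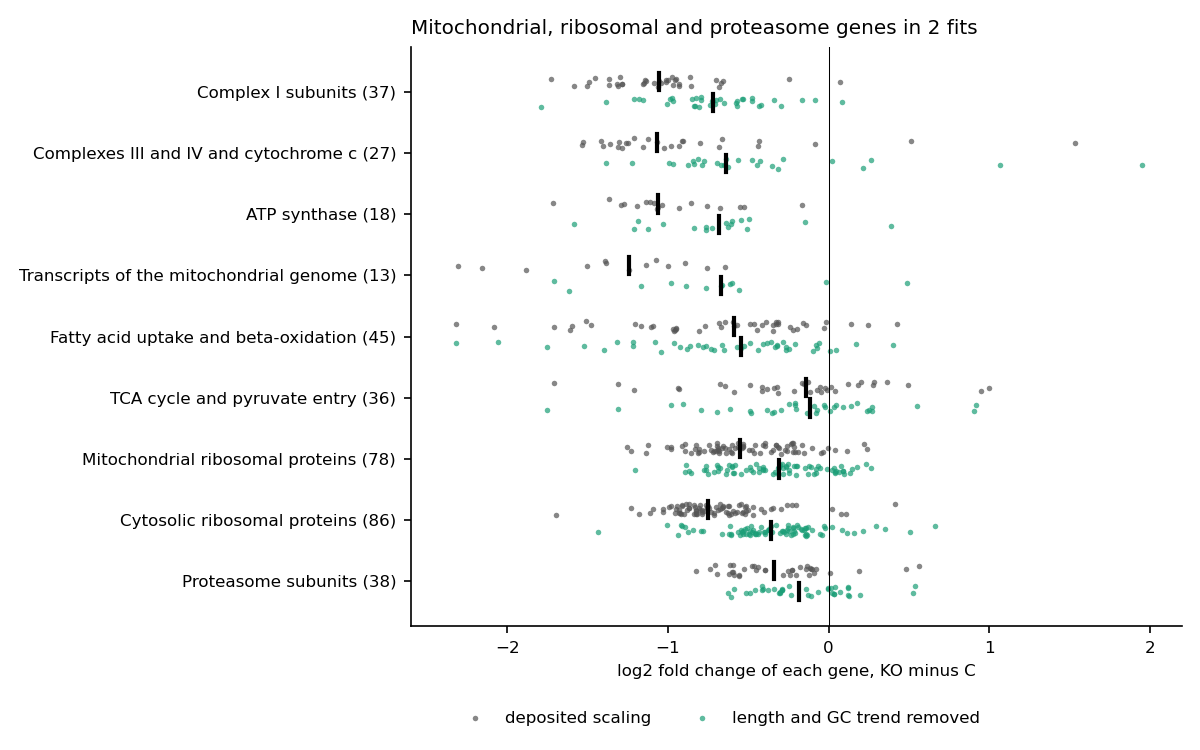
Log2 fold change (KO minus C) of each gene in 9 lists, once with the deposited scaling (grey) and once with the trend of transcript length and GC content removed in each library (green); black bars are medians. The respiratory chain medians move from about -1.05 to -0.72 for complex I and the ribosomal median from -0.75 to -0.36, while the fatty acid median moves from -0.59 to -0.54.

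Of 28 creatine kinase and glycogen genes 4 were higher (14.3%) and 3 lower (10.7%), beside 6.9% and 7.01% of all tested genes. The held call was Phkg1, the muscle catalytic subunit of phosphorylase kinase, at 16.2, 19.4 and 23.8 in C and 3.96 and 7.58 in KO (log2FC -1.66 ± 0.23 SE, limma adjusted p = 0.00144). Ckm, muscle creatine kinase, fell (3959.6 ± 269 in C and 1603 ± 219.6 in KO, log2FC -1.31 ± 0.31 SE, limma adjusted p = 0.0175) with a call that ended in each fit without 1 library (lost without C replicate 1, C replicate 2, C replicate 3, KO replicate 1 and KO replicate 3 at adjusted p = 0.0672, 0.0588, 0.0741, 0.137 and 0.0911). Among antioxidant genes 5 of 32 tested members rose and 4 fell. Sod1, the cytosolic superoxide dismutase gene, read 346, 306 and 287 in C and 137 and 123 in KO (log2FC -1.26 ± 0.19 SE, limma adjusted p = 0.00176), a held call. Hmox1, the haem oxygenase gene that both HIF and NRF2 induce, rose (4.67 ± 0.327 in C and 13.2 ± 0.168 in KO, log2FC 1.33 ± 0.27 SE, limma adjusted p = 0.00808, lost without KO replicate 1 and KO replicate 3 at adjusted p = 0.0619 and 0.0761). In the ATF4 and serine list 2 of 23 tested members rose and 0 fell, the other held rise besides Gdf15 being the amino acid transporter gene Slc7a5 at 3.34, 3.59 and 2.63 in C and 9.59 and 10.6 in KO (log2FC 1.41 ± 0.19 SE, limma adjusted p = 0.00114). Atf4 gave log2FC 0.17 ± 0.18 SE, limma adjusted p = 0.568 and Asns log2FC 0.04 ± 0.26 SE, limma adjusted p = 0.933. In the heat shock and folding list 5 of 30 tested members rose and 1 fell, none a held call.

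Of the markers of other cell types, summed levels of the epicardium list were 425 to 484 in C and 951 to 1097 in KO. Its members include Clu, which is also counted among complement genes. Wt1, Krt19 and Sulf1 made up a small part of the summed level of the epicardium list in every library. In that list 7 of 14 tested members rose and 0 fell, with 2 held calls. Krt19, a simple-epithelium keratin gene of mesothelium, read 0.0306, 0.392 and 0.154 in C and 5.53 and 9.41 in KO (log2FC 2.80 ± 0.27 SE, limma adjusted p = 0.000221). Sulf1, a heparan sulfatase gene, read 13.3, 9.49 and 10.4 in C and 32.4 and 27.6 in KO (log2FC 1.37 ± 0.22 SE, limma adjusted p = 0.00265). Wt1, the gene whose promoter drives Cre, read 2.42, 4.73 and 3.12 in C and 7.62 and 7.02 in KO (log2FC 0.94 ± 0.26 SE, limma adjusted p = 0.0302), a call that ended without most libraries (lost without C replicate 1, C replicate 3, KO replicate 1 and KO replicate 3 at adjusted p = 0.109, 0.0883, 0.163 and 0.146). The mesothelial genes Upk3b (log2FC -0.22 ± 0.41 SE, limma adjusted p = 0.771) and Msln (log2FC 0.21 ± 0.43 SE, limma adjusted p = 0.792) were not called. In bulk tissue more cells of a type and more RNA per cell cannot be told apart.

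Summed fibroblast markers were 1364 to 2164 in C and 2008 to 2553 in KO, and the ranges overlapped. In that list 7 of 22 tested members rose and 2 fell, and the 5 held rises were collagen genes, Mfap5 and Cthrc1. Cthrc1, a secreted protein gene of activated fibroblasts, read 0.153, 0.211 and 0.0927 in C and 2.89 and 2.89 in KO (log2FC 1.76 ± 0.26 SE, limma adjusted p = 0.00164). Pdgfra, the receptor gene used to define cardiac fibroblasts, read 22.5, 23.7 and 18.998 in C and 17.5 and 16.2 in KO (log2FC -0.34 ± 0.20 SE, limma adjusted p = 0.280). Gsn gave log2FC -0.34 ± 0.39 SE, limma adjusted p = 0.604, and Dpt log2FC -0.46 ± 0.27 SE, limma adjusted p = 0.284. Cxcl14, a chemokine gene of fibroblasts, read 13.9, 7.68 and 13.5 in C and 0.728 and 1.02 in KO (log2FC -2.72 ± 0.38 SE, limma adjusted p = 0.00126). The part of fibroblast number in the matrix rises was not tested. Summed endothelial markers were 3106 to 4214 in C and 2755 to 3036 in KO, with 1 of 29 higher and 3 lower, none held. Pecam1 gave log2FC 0.46 ± 0.27 SE, limma adjusted p = 0.281 and Cdh5 log2FC 0.12 ± 0.25 SE, limma adjusted p = 0.791. Mural cell markers summed to 3261 to 3477 in C and 3359 to 3399 in KO, and the held call among them was Ndufa4l2. Rgs5, a pericyte marker, gave log2FC 0.38 ± 0.24 SE, limma adjusted p = 0.331.

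Macrophage markers summed to 410.4 to 447 in C and 572 to 575 in KO, and 5 of 24 rose, none a held call. With the trend of length and GC taken out 11 were higher, beside 981 of all genes, and with library totals 18. Library totals also raised the higher counts to 11 in the fibroblast, 9 in the endothelial, 8 in the mural and 10 in the epicardium list. With that scaling 4611 of all 13544 tested genes were higher. Lgals3, also a stress gene, gave log2FC 1.32 ± 0.25 SE, limma adjusted p = 0.00556 (lost without KO replicate 1 at adjusted p = 0.0732), and Adgre1 log2FC 0.72 ± 0.22 SE, limma adjusted p = 0.0510. Beside this, 7 of 20 complement and acute-phase genes rose and 1 fell, the held call being Serpina3n. Among chemokine and cytokine genes 6 of 36 tested members rose and 3 fell, with Cx3cl1 (7.50, 5.58 and 6.33 in C and 15.3 and 13.5 in KO, log2FC 1.05 ± 0.19 SE, limma adjusted p = 0.00445) and Cxcl14 as held calls. None of 9 MHC class II genes, 14 lymphocyte, 5 neutrophil or 6 erythroid markers was called, and of 33 interferon-induced genes 1 fell. In the neuron and glia list 2 of 12 tested members rose and 2 fell, with 2 held rises and 1 held fall. Tubb3 (0.398, 0.994 and 0.958 in C and 5.45 and 4.32 in KO, log2FC 1.73 ± 0.28 SE, limma adjusted p = 0.00260) and Uchl1 (9.34, 11.6 and 7.32 in C and 22.6 and 25.2 in KO, log2FC 1.27 ± 0.20 SE, limma adjusted p = 0.00250) rose. The fall of Cdh19, a glial gene, was not held (log2FC -1.17 ± 0.22 SE, limma adjusted p = 0.00513, lost without KO replicate 3 at adjusted p = 0.0523). Of 11 adipocyte markers 4 fell, with summed levels of 321 to 372 in C and 208 to 305 in KO. Plin1, Cidec and Pck1 had 0 reads in both KO libraries. The held call was Lipe, hormone-sensitive lipase, at 100.4, 92.6 and 94.4 in C and 43.05 and 47.8 in KO (log2FC -1.06 ± 0.19 SE, limma adjusted p = 0.00411).

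Skeletal muscle genes had some of the largest falls. Summed levels of the list were 5484 to 6547 in C and 2274 to 2756 in KO, and 1 of 19 tested members rose and 15 fell, with 11 held falls. Myh4, the fastest skeletal myosin, read 66.5, 17.4 and 128 in C and, like the slower fast-fibre myosin gene Myh2, had 0 reads in both KO libraries. Tnnt3, fast skeletal troponin T, read 38.7, 9.37 and 73.4 in C and 0.177 and 0.225 in KO, and Mylpf, a fast light chain gene, 22.1, 7.26 and 41.5 in C and 0.374 and 0.260 in KO. C 2 was the lowest and C 3 the highest of the C libraries in each, several-fold apart, while both KO libraries stayed under 1 unit. Casq1, the calcium store protein of fast fibres, rose instead (21.9 ± 2.51 in C and 66.9 ± 17.9 in KO, log2FC 1.55 ± 0.29 SE, limma adjusted p = 0.00526, lost without KO replicate 1 at adjusted p = 0.0660). Eno3 and Ckm, which heart muscle also expresses, fell less, at -1.12 and -1.31 on the log2 scale. Ckm made up most of the summed level of the list in both groups.

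Outside the lists, and leaving out predicted genes and pseudogenes, single genes of varied role had large held falls. Tesc, encoding the calcium-binding protein tescalcin, read 398, 369 and 389 in C and 66.6 and 75.9 in KO (chromosome 5, 118027743 to 118061878, log2FC -2.42 ± 0.22 SE, limma adjusted p = 0.000122). Lgals4, a galectin gene, read 118, 83.5 and 150.5 in C and 23.2 and 22.1 in KO (log2FC -2.28 ± 0.25 SE, limma adjusted p = 0.000393). Kbtbd12, a kelch-repeat protein gene, read 28.3, 34.6 and 32.6 in C and 6.24 and 6.85 in KO (log2FC -2.12 ± 0.19 SE, limma adjusted p = 0.000122). The C libraries of Tesc and Kbtbd12 lay close together and far above KO. Rad9b, a paralogue of a DNA damage checkpoint clamp gene, read 23.2, 22.5 and 23.1 in C and 4.11 and 3.52 in KO (log2FC -2.32 ± 0.16 SE, limma adjusted p = 1.6e-05).

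Clock, growth and early response genes completed the lists. In the circadian list 4 of 19 tested members rose and 1 fell. Arntl, which encodes BMAL1, the activator of the loop, read 12.2, 8.11 and 13.3 in C and 3.56 and 3.55 in KO (log2FC -1.39 ± 0.21 SE, limma adjusted p = 0.00178), a held call opposite to its repressors Bhlhe40 and Bhlhe41. Dbp (52.1 ± 18.5 in C and 115 ± 0.00638 in KO, log2FC 1.18 ± 0.24 SE, limma adjusted p = 0.00805, lost without KO replicate 1 and KO replicate 3 at adjusted p = 0.0569 and 0.0752) and Per3 (11.05 ± 2.84 in C and 24.6 ± 0.690 in KO, log2FC 1.11 ± 0.21 SE, limma adjusted p = 0.00594, lost without KO replicate 3 at adjusted p = 0.0686) rose, and Clock (log2FC -0.08 ± 0.15 SE, limma adjusted p = 0.754) and Nr1d1 (log2FC -0.01 ± 0.19 SE, limma adjusted p = 0.979) were not called. The sources used here do not give the hour of collection, and its part was not tested. In the cell cycle list 10 of 42 tested members rose and 2 fell, and the held calls went opposite ways. Ccnd2, a cyclin D gene, read 38.97, 39.4 and 35.2 in C and 81.1 and 82.9 in KO (log2FC 1.10 ± 0.15 SE, limma adjusted p = 0.00133). Cdkn1c, the imprinted inhibitor p57, read 54.7, 37.3 and 39.4 in C and 13.96 and 11.9 in KO (log2FC -1.67 ± 0.23 SE, limma adjusted p = 0.00125). Top2a, a topoisomerase gene of dividing cells, rose from a low level (2.02 ± 0.847 in C and 5.72 ± 0.764 in KO, log2FC 1.19 ± 0.26 SE, limma adjusted p = 0.0114, lost without KO replicate 1 and KO replicate 3 at adjusted p = 0.0541 and 0.122). With library totals 33 members of this list were higher and 1 lower, beside 4611 and 195 of all 13544 tested genes. In the immediate early list 9 of 28 tested members rose and 0 fell, with 1 held call, Ier3 (16.5, 15.1 and 14.5 in C and 61.3 and 47.3 in KO, log2FC 1.75 ± 0.18 SE, limma adjusted p = 0.000283). Egr1 gave log2FC -0.30 ± 0.40 SE, limma adjusted p = 0.668. Summed levels of the list were 541 to 631 in C and 924 to 967 in KO. These genes are known to respond to tissue handling, whose part was not tested.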

How the data were processed

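PolyA RNA of mouse ventricle was fragmented, primed with random hexamers and sequenced on an Illumina instrument, per the labels' protocols. Cutadapt, RSEM 1.3.1, limma and the build GRCm38 are named, without roles, in the submitters' processing notes. No source used here states the annotation or the strand setting. The authors deposited 1 table of normalised signal for 13677 genes in 8 libraries. Each deposited signal value was a whole number of reads plus 0.5, divided by the library total times a scaling factor and put on the scale of CPM. For 100% of values this gave back whole reads within 0.001 reads, and edgeR's TMM factors computed from them equalled the deposited ones. Reads of near-identical copies may have been divided between them.

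Groups came from sample titles. The 13544 genes reaching 1 in 2 or more of the 8 libraries entered a limma fit (version 3.58.1, R 4.3.3) of 3 group means on log2(signal + 1), with an intensity trend. Benjamini-Hochberg adjustment ran over all of these genes. Fold changes on that scale understate the change of low genes. The 8-library fit was the main one, the DKO libraries adding only to the spread. Held calls passed an adjusted p of 0.05 in this fit and in each of 5 fits without 1 C or KO library. The scripts were tested on simulated reads.

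Named genes were Vhl, Hif1a, Epas1 and Wt1, the members of the HIF pathway list and the sex-linked genes. Added to these were the 15 held calls per direction with the largest change, a mean level no lower than the median of tested genes, no overlap between KO and C and no predicted or pseudogene name. Each list gave up to 5 called members per direction, held calls first, or its member with the smallest p. Some of these are not reported here. Others were named after their values were seen, mostly list members that were not called: Acadm, Acta1, Adgre1, Aire, Ankrd37, Asns, Atf4, Atp2a2, Atp5a1, Bnip3, Cd36, Cdh5, Cidec, Cilp, Clock, Dcn, Dpt, Egr1, Eno3, Fgf23, Flt1, Gata4, Gm8730, Gsn, Kdr, Ldha, Lum, Msln, Myh2, Myh6, Myl2, Myl4, Myl7, Ndufs1, Nkx2-5, Nppb, Nr1d1, P4ha1, P4ha2, Pcdhga10, Pck1, Pdgfra, Pdk1, Pecam1, Pgk1, Plin1, Pln, Rcan1, Rgs5, Rplp0, Ryr2, Tgfb1, Tgfb3, Tnfrsf9, Uck2, Upk3b, Uqcrc2 and Vegfa. The comparison, gene lists and tests were chosen with earlier results of these data known. The ribosomal and proteasome lists were taken by name pattern and include a few relatives that are no subunits, such as Rps19bp1 and Psmc3ip. Coordinates and transcript lengths are those of GENCODE M21 on GRCm38 (13666 identifiers matched), promoters those of RefSeq on GRCm38.p6.

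Alternatives were other pseudocounts, minimum values, scalings, variance trends, edgeR 4.0.16, DESeq2 1.42.0 and voom on the recovered reads, a replicate block, and fits without each library.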

Additional observations from a re-analysis of the deposited data

How the results depend on the processing

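The count of 1883 called genes (934 higher, 949 lower) rose to 3606 (1802 and 1804) with C and KO libraries only, and to 4806 (4611 and 195) with library totals, which put the share of higher genes among calls at 95.9% against 49.6% with the deposited scaling and 58.8% after removing the trend of length and GC. Median centring put it at 43.3%. Leaving out 1 library gave 449 to 2966 calls (250 to 1447 higher, 199 to 1519 lower), the lowest without KO replicate 3 and the highest without DKO replicate 2, the DKO library with 41.6% mitochondrial reads. On recovered reads edgeR called 1049 higher and 996 lower genes, DESeq2 1176 and 1314, and limma voom 1042 and 1026. With a replicate block the counts were 879 and 915. Deviations from the group means correlated at 0.218 between C 1 and KO 1 and at 0.140 between C 3 and KO 3. With 2 KO libraries their deviations are mirror images, so C 1 with KO 3 gave -0.218 and C 3 with KO 1 -0.140. C 2 with KO 3, which share no number, gave 0.0632. The labels do not give the meaning of the 2 shared numbers, so the samples share only a number. Of 248 named genes 139 kept their side of the threshold without KO replicate 3 and 150 without KO replicate 1; 191 did so with library totals and 222 without the trend of length and GC. Under the other settings without a left-out library at least 233 of 248 did, or 224 of 224 at a minimum of 5. None of these genes that was called changed sign under any alternative run. With 2 KO libraries, a difference that misses the threshold may still be present.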

Other observations

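Some of the largest differences were in genes outside every list, looked at after their values were seen. Tnfrsf9, encoding the co-stimulatory receptor 4-1BB of lymphocytes, read 0.0918, 0.151 and 0.0927 in C and 13.4 and 13.95 in KO (log2FC 3.72 ± 0.21 SE, limma adjusted p = 4.46e-06), a held call, while none of the 14 lymphocyte markers was called. Aire, the transcriptional regulator of the thymus, had 0 reads in all C libraries and 10.6 and 8.65 in KO, a held call (limma, adjusted p = 8.57e-06). Fgf23, a phosphate-regulating hormone gene of bone, and Pcdhga10, a protocadherin gene, also had 0 reads in all C libraries, at 1.24 and 1.13 and at 1.67 and 2.24 in KO; both were called, though neither call held. In the other direction 15 genes had 0 reads in both KO libraries. Among them was Gm8730, a processed pseudogene of the ribosomal protein gene Rplp0, at 236, 255 and 221 in C. Rplp0 itself read 536, 487 and 465 in C and 687 and 631 in KO (log2FC 0.41 ± 0.20 SE, limma adjusted p = 0.203), and the sum of the pair was 685 to 773 in C and 631 to 687 in KO, so that the pair's sum differed by far less than the pseudogene. Reads of such near-identical copies can be split uncertainly. On chromosome 7, 122 of 1046 tested genes were lower (11.7%), against 7.01% of all genes. The share was also above this on chromosome 19 (10%), chromosome 15 (9.06%) and the mitochondrial genome (33.3% of 15 tested genes). The remaining chromosomes lay between 0% (Y) and 8.22% (chromosome 6).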
